A study of Mus musculus with 14 samples.

Results

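The regions described here are the 200-bp bins of the mouse genome in which acetylated chromatin was read most deeply both before and after differentiation. A bin of chr1 to chr19 was a member when its CpG counts, the methylated and unmethylated CpG calls summed over its reads, reached 200 in the H3K27ac library of embryonic stem cells (ESCs) and again in that of differentiated cells. This left 8456 members among 7007599 bins with a CpG count in any of 8 libraries, and 10.6% of the 79672 bins with at least 30 counts in both H3K27ac libraries. All libraries come from R1, a line of mouse ESCs. ESCs had spent 2 days without 2i, the inhibitors of MEK/ERK and GSK3 in which the line was maintained. Differentiated cells (Diff) had received 1 µM retinoic acid for 4 days without LIF. XEN cells, induced towards extraembryonic endoderm, had been grown for 9 days with retinoic acid at 0.1 µM together with Activin A. Chromatin was cut with MNase, precipitated with an antibody to H3K27ac or H3K4me1 and bisulfite sequenced (ChIP-BS-seq), so that 5mC was read on the precipitated DNA. Each mark had 1 library in ESCs and 1 in Diff cells, and 2 labelled replicates in XEN cells.

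H3K27ac is a mark of active promoters and enhancers. H3K4me1 marks enhancers and also the shoulders of active promoters, whose centres carry H3K4me3 instead. CpG-dense promoters are generally free of DNA methylation, whereas enhancers outside CpG islands often hold low to intermediate methylation that can change with cell state. CpG counts are the product of reads and of CpGs in the bin, and the number of CpGs per bin was not available here, so a high count can reflect many reads or many CpGs, which cannot be told apart. Bins are given in mm9 coordinates without gene names, because no annotation of that build was used.

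The XEN libraries went against their labels and are called by label throughout. The members held 7.80% of all autosomal CpG counts in the H3K27ac library of ESCs and 8.44% in that of Diff cells, against 0.168% and 0.347% in the H3K4me1 libraries. In XEN cells it was the 2 libraries labelled H3K4me1 that held 11.4% and 10.4%, while those labelled H3K27ac held 0.523% and 0.531%. The names of the deposited XEN data also gave the marks the other way round. Over all chromosomes the 4 libraries of ESCs and Diff cells held 32305709 to 58803653 CpG counts and the 4 XEN libraries 12147115 to 31345707, and XEN bins under 4 counts were not listed. On mitochondrial DNA, which is read as unmethylated, 5mC was 0.383% to 6.44% in the libraries of ESCs and Diff cells and at most 0.242% in XEN libraries.

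The rule fixed the H3K27ac counts, which are given as a description of the values that chose the members. The median member had 276 counts in ESCs, with quartiles of 235 and 336, and 298 in Diff cells. The highest counts were 873 in ESCs and 1128 in Diff cells, both in chr6:136752601-136752800, where 5mC was 0.573% and 1.06%. A bin on chromosome 18 followed, with 738 counts in ESCs and 770 in Diff cells, 5mC of 0.136% and 0.390%, and no H3K4me1 count in either state. The bin chr12:3427201-3427400 had 726 and 688 counts with 5mC of 0.138% and 0.291%. The bin chr7:52105001-52105200 had 702 and 686 counts with 5mC of 0.285% and 0.729%. The remaining bin of the 5 deepest, chr11:3093001-3093200, stood apart with 5mC of 15.4% in ESCs and 13.9% in Diff cells, on 707 and 949 counts. Thus 4 of the 5 deepest members were close to fully unmethylated and 1 was not. At the threshold itself, the 487 members whose smaller count was 200 to 204 had pooled 5mC of 0.814% in ESCs and 1.21% in Diff cells, and the 451 bins just outside, at 195 to 199, had 0.889% and 1.45%.

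**Figure D1:**
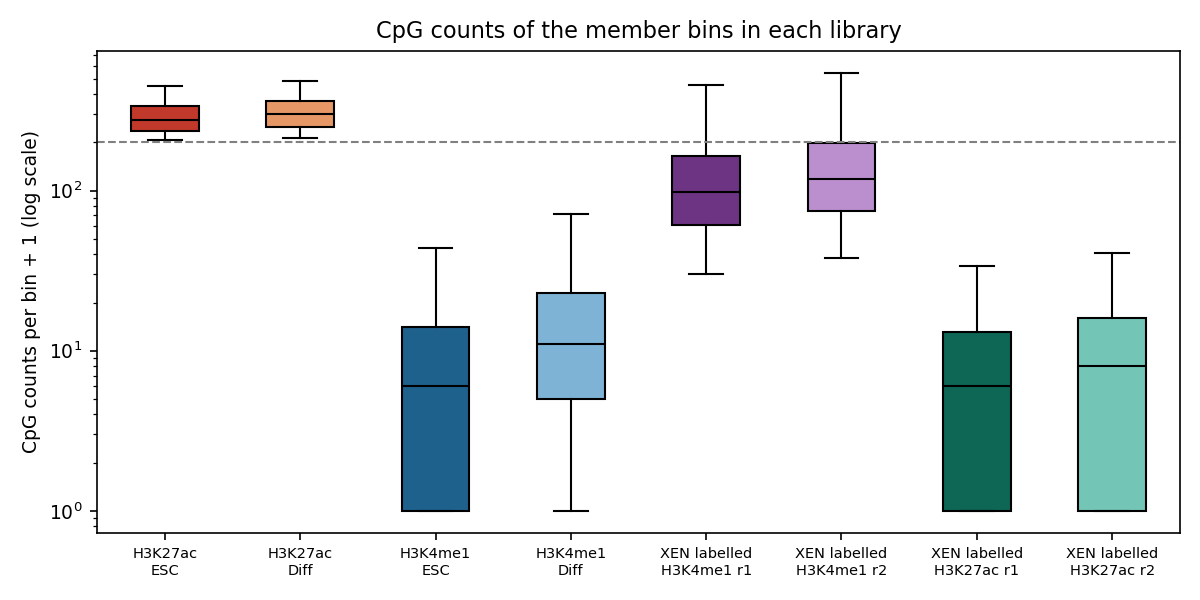
CpG counts plus 1 per member bin (log axis) in each of the 8 libraries; boxes span the quartiles, black lines are medians and whiskers reach the 5th and 95th percentiles of the 8456 members. The dashed line is the rule's minimum of 200 counts, applied to the H3K27ac libraries of ESCs and Diff cells; medians were 276 and 298 there, 5 and 10 in the H3K4me1 libraries, 97 and 117 in the XEN libraries labelled H3K4me1, and 5 and 7 in those labelled H3K27ac.

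The members lay in 5610 runs of adjacent bins. Of these, 3666 were single bins, 1314 held 2 bins and 57 held 5 or more, and 75.3% of members had another within 2 kb. The longest run covered chr6:86475001-86477400, 12 bins over 2400 bp. Its bins held 205 to 549 H3K27ac counts in ESCs and 216 to 578 in Diff cells, with pooled 5mC of 0.353% and 0.541%, and H3K4me1 counts of 0 to 19 in ESCs and 7 to 62 in Diff cells. The next run, chr6:148893001-148894800, held 9 bins with pooled H3K27ac 5mC of 0.413% and 0.358%. The run chr11:4998401-5000000 held 8 bins with 0.388% and 0.319%. No bin in this last run exceeded 12 H3K4me1 counts in ESCs or 32 in Diff cells. By chromosome, members numbered from 0.933 per 1000 listed bins on chr1 to 2.09 on chr11.

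Nearly every member lay in an H3K27ac peak called by the authors, as did 98.1% of comparison bins, those with at least 30 H3K27ac counts in both states that were not members, in ESCs and 98.0% in Diff cells. All 8456 overlapped a peak of the ESC list by at least 1 bp and 8455 a peak of the Diff list. The peaks were called on the same reads that chose the members, so this overlap is not independent of the rule. The exception, chr1:58450001-58450200, had 255 and 258 H3K27ac counts and no H3K4me1 count. The 4178 host peaks of ESCs had a median width of 5656 bp, against 3507 bp for peaks that held comparison bins and 1658 bp for all 98714 autosomal peaks, and 70.9% of them were in the top 10% by HOMER score. The 4222 host peaks of Diff cells had a median width of 4972 bp, against 3428 bp and 1784 bp. A median host peak held 2 members in either state, the fullest held 13, and 47.5% of ESC hosts held only 1. The median member lay 1099 bp from the centre of its ESC host peak and 958 bp from that of its Diff host peak.

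H3K4me1, which the rule did not use, had lower median counts in the members than in comparison bins, though not than in all autosomal bins. The median member had 5 H3K4me1 CpG counts in ESCs and 10 in Diff cells, and 839 members had none in either state. The 71216 comparison bins had a median of 28 in each state, and all autosomal bins had medians of 2 in ESCs and 1 in Diff cells. Within a bin the ratio of the 2 marks does not depend on the number of CpGs. With each count divided by its library's autosomal total, the median ratio of H3K27ac to H3K4me1 among members with counts of both was 5.76 on the log2 scale in ESCs and 5.12 in Diff cells, against 1.93 and 1.81 in comparison bins. The rule selected on the numerator of this ratio, so the gap is a description. H3K4me1 peaks covered 39.8% of members in ESCs and 51.4% in Diff cells, against 77.8% and 77.4% of comparison bins. Of all members, 2919 lay in H3K4me1 peaks of both states, 446 in ESCs alone, 1424 in Diff cells alone and 3667 in neither.

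The members differed widely among themselves in H3K4me1. The 3 with the most counts were neighbours near the start of chr11. The bin chr11:3093001-3093200 had 450 counts in ESCs and 655 in Diff cells. The bin chr11:3093601-3093800 had 475 and 482, and chr11:3093401-3093600 had 340 and 436. All 3 were also among the more methylated members, with H3K4me1 5mC of 27.3% to 41.5% in ESCs and 40.4% to 61.0% in Diff cells. At the other end, the first members by position without a single H3K4me1 count were chr1:4798001-4798200, chr1:4848001-4848200 and chr1:6205001-6205200, whose H3K27ac 5mC was 0 of 205, 226 and 298 counts in ESCs and 0.461%, 0.995% and 0% in Diff cells. A count of 0 there limits coverage, not the presence of the mark.

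5mC in the members was low on both marks. Pooled over members it was 0.646% in the H3K27ac library of ESCs (exact 95% interval 0.637 to 0.656) and 0.849% in that of Diff cells (0.838 to 0.860). These intervals cover counting error only. Comparison bins had 3.03% and 6.73%, and all autosomal bins 33.1% and 38.8%. In ESCs 2219 members had no methylated count at all, in Diff cells 1620, and 492 had none in both. These are 26.2% and 19.2% of members, against 41.1% and 26.2% of comparison bins, which had fewer counts. A total of 8254 members, 97.6%, were under 5% in both libraries. On H3K4me1 chromatin the pooled level was 2.94% (2.84 to 3.05) in ESCs and 4.53% (4.43 to 4.64) in Diff cells, against 8.77% and 22.8% in comparison bins. The median of the members with at least 30 H3K4me1 counts was 0% in ESCs (805 members) and 1.12% in Diff cells (1471 members), so the pooled H3K4me1 levels were set by a minority. As the mean of the members' own percentages the H3K4me1 levels were 2.77% in ESCs and 2.56% in Diff cells, over all members with any count, but 1.69% and 3.53% over those with at least 30 counts.

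Between ESCs and Diff cells few members changed their 5mC on H3K27ac chromatin. Each bin was tested by a two-sided Fisher's exact test, and p-values were adjusted by Benjamini-Hochberg over every autosomal bin with at least 30 counts in both libraries. With 1 library per state such a test compares the libraries and not the states. Of the 8456 members 174 (2.06%) were higher in Diff cells at an adjusted p under 0.05, against 14.0% of all 79672 bins tested, and 7 were higher by over 20 percentage points, against 10.3%. In the other direction 76 members (0.899%) were lower, against 1.09%. The median difference, Diff minus ESC, was 0.0742 points in members and 0.734 points over all tested bins. Members had more counts than other bins and hence more power. The share called higher fell with depth, from 20.9% of bins whose smaller count was 30 to 59 to 4.88% of those at 150 to 199 and 2.06% in members.

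The largest gain was in chr11:116485801-116486000, where 5mC went from 3.67% of 218 H3K27ac counts in ESCs to 52.4% of 208 in Diff cells (Benjamini-Hochberg adjusted p = 5.31e-29, Fisher's exact test). The bin chr4:132909801-132910000 went from 0.373% of 268 counts to 27.9% of 226 (adjusted p = 7.35e-20, Fisher's exact test). The bin chr11:11722201-11722400 went from 1.37% of 293 to 27.9% of 204 (adjusted p = 2.61e-17, Fisher's exact test). All 3 lay in H3K4me1 peaks of both states. The largest losses were smaller. The bin chr6:136467601-136467800 fell by 19.5 points, from 33.7% of 208 counts to 14.2% of 261. The bin chr13:55546801-55547000 fell by 18.8 points, from 22.1% of 222 to 3.26% of 215, and chr13:97841401-97841600 by 15.8 points, from 26.5% of 298 to 10.7% of 243. Both bins of chr13 lay outside the H3K4me1 peaks.

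On H3K4me1 chromatin only 649 members could be tested. Of these 95 (14.6%) were higher in Diff cells, against 47.7% of all 203534 bins tested, and 3 (0.462%) were lower, against 1.84%. The share called higher depended on the coverage minimum, at 92 of 1115 members (8.25%) with 20 counts and 72 of 196 (36.7%) with 60. Over all tested bins it was 43.8% where the smaller count was 30 to 59 and 57.8% at 60 to 99. The median difference was 1.59 points in members and 17.4 points over all tested bins. The bin chr11:116485801-116486000 again showed the largest gain, from 3.42% of 117 counts to 47.3% of 91 (Benjamini-Hochberg adjusted p = 1.58e-12, Fisher's exact test). It was followed by chr11:11722201-11722400, from 2.01% of 149 to 43.0% of 207, and by chr1:180247801-180248000, from 25.4% of 134 to 59.9% of 337. The 3 losses were chr2:98503001-98503200, from 64.7% to 48.9%, chr2:98507201-98507400, from 71.6% to 60.6%, and chr9:35112801-35113000, from 78.0% to 68.6%. These 3 were methylated in every library.

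Read on the 2 marks in the same cells, 5mC was called different in few members, though in a larger share than of all tested bins. Most members had too few H3K4me1 counts to be tested. In ESCs 8 of 805 tested members (0.994%) were higher on H3K4me1 than on H3K27ac chromatin, against 0.0839% of 95333 bins. None was lower by Fisher's exact test after adjustment, where 1 member had an unadjusted p under 0.05, and 0.0147% of all bins were called lower. In Diff cells 35 of 1471 members (2.38%) were higher on H3K4me1, against 0.817% of 96139 bins. None was lower by the same test, where 2 had an unadjusted p under 0.05, against 0.0135% called over all bins. The median H3K27ac 5mC of the tested members was 0.5% in ESCs and 0.909% in Diff cells. The test could therefore hardly call a lower level on H3K4me1 chromatin. Among all tested bins whose smaller count was 30 to 59, the shares called higher were 0.0546% in ESCs and 0.512% in Diff cells, and they were higher in each deeper class, up to 2.78% and 11.0% at 200 counts or more. Members carry more H3K27ac counts than other bins, and the part of this in the shares was not tested. In ESCs chr19:8963601-8963800 had 52.4% of 63 H3K4me1 counts and 0.274% of 365 H3K27ac counts. The bin chr8:109674601-109674800 had 29.3% of 41 and 0.314% of 318, and chr6:124690601-124690800 had 26.5% of 34 and 0.687% of 291. In Diff cells chr13:24893201-24893400 had 83.3% of 30 H3K4me1 counts and 4.00% of 375 H3K27ac counts. The bin chr1:84835801-84836000 had 42.9% of 35 and 4.31% of 209, and chr8:27268801-27269000 had 37.1% of 35 and 0.860% of 349. CpG calls on the same read are not independent, and these 6 values rest on 30 to 63 H3K4me1 counts.

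Most gains of 5mC were in the members richest in H3K4me1. Most losses were in the other tiers, which hold most of the members. The 649 members with at least 30 H3K4me1 counts in both states (H3K4me1-rich, 7.68% of members) had medians of 48 and 73 such counts. The 1685 members with fewer than 5 in each state (H3K4me1-poor, 19.9% of members) had medians of 0 and 0. Their H3K27ac counts were alike, with medians of 261 and 286 in the rich and 274 and 289 in the poor. On H3K27ac chromatin the rich members had pooled 5mC of 1.43% in ESCs and 3.44% in Diff cells, and the poor had 0.717% and 0.606%. Of the 174 members called higher in Diff cells 125 were H3K4me1-rich, which is 19.3% of the rich, and 4 were poor, 0.237% of them, against 14.0% of all bins tested. Of the 76 called lower 2 were rich (0.308%) and 33 poor (1.96%), against 1.09% of all bins tested. The 6122 members between these tiers (72.4% of members) had medians of 7 and 12 H3K4me1 counts. They held 45 of the gains (0.735% of these members) and 41 of the losses (0.670%). These are counts over bins of 1 library per state, and the difference between the tiers was not tested.

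The flanks of the members showed how the marks were arranged. H3K27ac counts fell steeply, from medians of 276 in ESCs and 298 in Diff cells to 163 and 175 at 200 bp, 26 and 25 at 1000 bp and 6 and 5 at 2000 bp. The member's own value is fixed by the rule, so part of this fall is. H3K4me1 went the other way, from medians of 5 and 10 in the member to 25 and 28 at 1000 bp, and was 21 and 17 at 2000 bp. Around H3K4me1-poor members the rise was from 0 in both states to 28 and 30 at 1000 bp. Around H3K4me1-rich members the counts fell instead, from 48 and 73 to 18 and 24 at 400 bp, and were 21 and 20 at 1000 bp. The choice of tiers fixes the values at the centre, not those in the flanks.

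**Figure D2:**
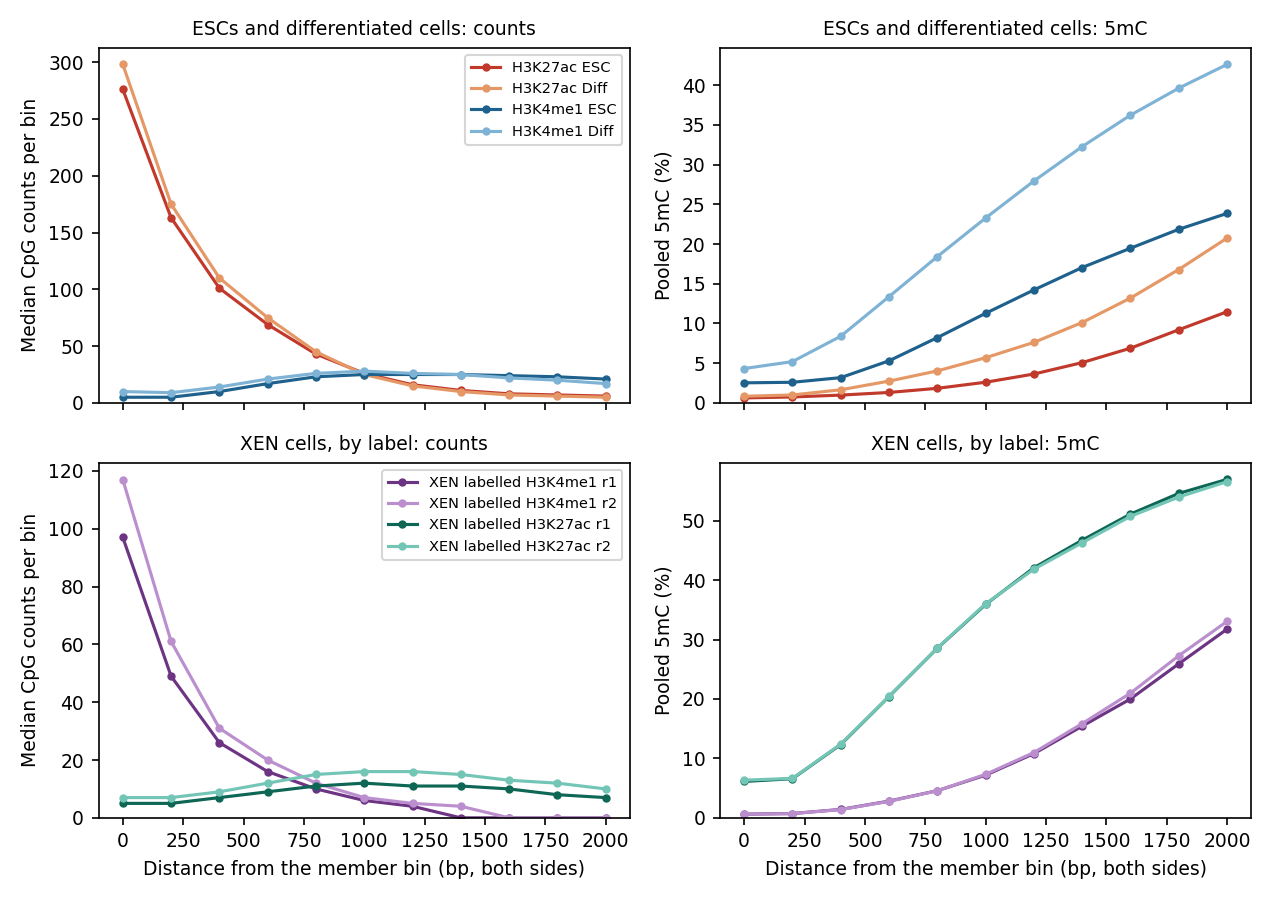
Median CpG counts per bin (left) and pooled 5mC in percent (right) against the distance from the member bin in bp, both sides pooled, for ESCs and Diff cells (top) and for XEN cells by label (bottom); bins over 2000 counts in any library are left out of the 5mC. The lines of H3K27ac fall away from the member, those of H3K4me1 are highest near 1000 bp (25 and 28) and lower at 2000 bp (21 and 17), and the XEN libraries labelled H3K4me1 fall as H3K27ac does, from medians of 97 and 117.

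From 200 bp outwards pooled 5mC rose with distance in the 4 libraries of ESCs and Diff cells, and in the XEN libraries once bins over 2000 counts were left out. On H3K27ac chromatin pooled 5mC in ESCs was 0.772% at 200 bp, 2.60% at 1000 bp and 11.5% at 2000 bp. In Diff cells it was 1.01%, 5.69% and 20.7% at the same distances. On H3K4me1 chromatin it was 2.93%, 11.3% and 23.9% in ESCs and 5.40%, 23.3% and 42.6% in Diff cells. The flanking bins themselves were not used by the rule, except where they were members. The share called higher in Diff cells on H3K27ac chromatin went from 2.41% of 14120 distinct bins tested at 200 bp to 11.0% of 6011 at 1000 bp and 20.3% of 1099 at 2000 bp, with 14.0% over all tested bins. On H3K4me1 chromatin it went from 18.1% of 1235 bins to 40.4% of 5561 and 56.8% of 3141, with 47.7% over all tested bins. At 2000 bp median H3K27ac counts were 6 and 5, while those of H3K4me1 fell from 25 and 28 at 1000 bp to 21 and 17. Over all tested H3K27ac bins the share called higher was 20.9% where the smaller count was 30 to 59 and 13.2% at 60 to 99. The part of depth in the flank shares was not tested.

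**Figure D3:**
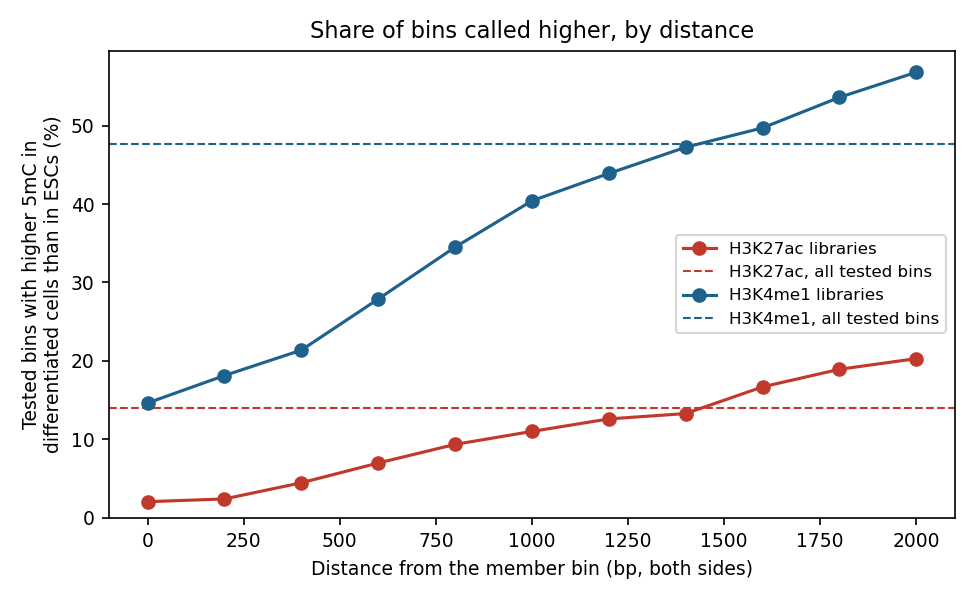
Percent of tested bins with higher 5mC in Diff cells than in ESCs (adjusted p under 0.05, Fisher's exact test) against distance from the member in bp, for H3K27ac (red) and H3K4me1 (blue) libraries; dashed lines are the shares over all tested bins, 14.0% and 47.7%. Both lines start far under their dashed line, at 2.06% and 14.6%, and end above it, at 20.3% and 56.8%. The dashed lines are not matched for depth. Over all tested H3K27ac bins the share was 20.9% where the smaller count was 30 to 59.

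The slope differed between the tiers of H3K4me1, a difference that was not tested. Around the poor members pooled H3K27ac 5mC in Diff cells went from 0.606% in the member to 5.80% at 1000 bp and 25.1% at 2000 bp. Around the rich members it started higher, at 3.44%, and was 5.88% at 1000 bp and 14.6% at 2000 bp. The share of bins called higher in Diff cells was 0.260% at 200 bp and 11.0% at 1000 bp around the poor members, and 15.5% and 13.7% around the rich.

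**Figure D4:**
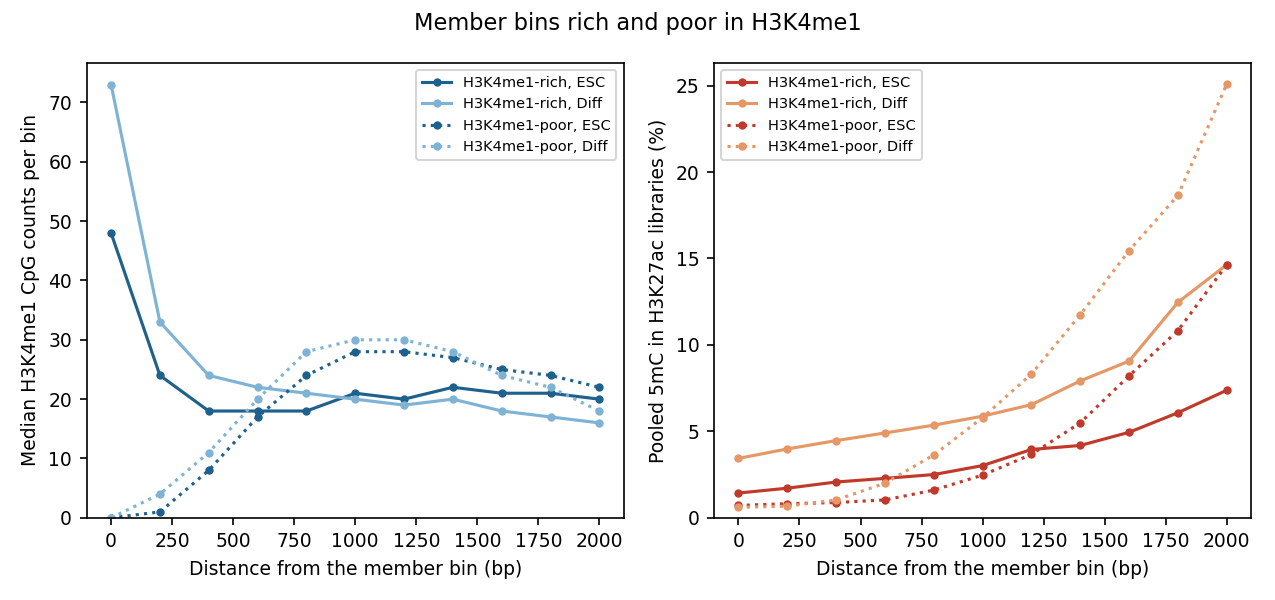
Median H3K4me1 CpG counts per bin (left) and pooled 5mC in the H3K27ac libraries in percent (right) against distance in bp for the 649 H3K4me1-rich (solid) and 1685 H3K4me1-poor (dotted) members, in ESCs (dark) and Diff cells (light). The H3K4me1 of rich members is highest in the member (48 and 73) and that of poor members at 1000 to 1200 bp (28 and 30).

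The methylated exceptions, the members with at least 20% 5mC in either H3K27ac library, numbered 24. In ESCs 11 members (0.130%) reached that level and in Diff cells 20 (0.237%), against 6.45% and 18.4% of comparison bins. Of these 22 lay in H3K4me1 peaks of ESCs and 22 in those of Diff cells, and 22 were H3K4me1-rich. They fell into 3 classes. In 7 bins 5mC was over 20% in both states. The most methylated was chr9:35112801-35113000, with 76.8% in ESCs and 73.7% in Diff cells on H3K27ac and 78.0% and 68.6% on H3K4me1 chromatin. Then came 3 bins of chr2. The bin chr2:98507201-98507400 had 64.0% and 64.7% on H3K27ac chromatin, chr2:98503001-98503200 had 63.5% and 61.3%, and chr2:98502801-98503000 had 56.3% and 43.8%. The bin chr1:180247801-180248000 had 27.1% and 43.2%. The bins chr11:3093601-3093800, with 34.0% and 32.8%, and chr11:3093401-3093600, with 23.5% and 21.5%, adjoin each other. In this class H3K4me1 counts were high too, 134 to 475 in ESCs and 223 to 482 in Diff cells, beside 213 to 424 and 203 to 537 H3K27ac counts. The median member had 5 and 10 H3K4me1 counts. The depth of these bins was thus not particular to the H3K27ac libraries. They were methylated in all 4 XEN libraries, from 20.5% to 76.9%.

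In 4 bins 5mC was over 20% in ESCs alone, at 22.0% to 33.7%, and 3.26% to 14.2% in Diff cells. They were chr6:136467601-136467800 and its neighbour chr6:136467801-136468000, and the bins chr13:97841401-97841600 and chr13:55546801-55547000 described above. The neighbour had 22.0% in ESCs and 11.4% in Diff cells on H3K27ac, and 27.1% of 70 and 24.0% of 146 counts on H3K4me1 chromatin. In the XEN libraries labelled H3K4me1 these 4 bins had 0% to 11.5% 5mC where they were listed. In those labelled H3K27ac they had at most 5.0% in replicate 1 and up to 31.6% in replicate 2, on at most 24 counts.

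In the other 13 exceptions 5mC was 0.373% to 8.39% in ESCs and 20.3% to 52.4% in Diff cells on H3K27ac chromatin. All 13 lay in H3K4me1 peaks of both states, with 62 to 185 H3K4me1 counts in ESCs and 48 to 252 in Diff cells. Their 5mC on H3K4me1 chromatin, which did not enter the definition, was 0.658% to 12.2% in ESCs and 20.0% to 47.3% in Diff cells, and 13 of 13 were called higher in Diff cells, against 47.7% of all bins tested on H3K4me1. That share rose with depth, from 43.8% where the smaller count was 30 to 59 to 71.5% at 150 to 199. In XEN cells the 13 bins had 14.5% to 56.1% 5mC in the first and 20.1% to 50.7% in the second library labelled H3K4me1, on 28 to 296 counts. They had 26.1% to 58.6% and 23.4% to 62.4% in the libraries labelled H3K27ac. The 24 directly adjacent bins with at least 30 counts in both H3K27ac libraries, 2 of them members, went from a median of 2.06% 5mC in ESCs to 19.2% in Diff cells. Of the 24, 22 were higher in Diff cells, where 60.6% of all tested bins were higher by sign alone. They adjoin bins chosen by 5mC in the same 2 libraries. Their values are therefore not independent of that choice and are a description.

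**Figure D5:**
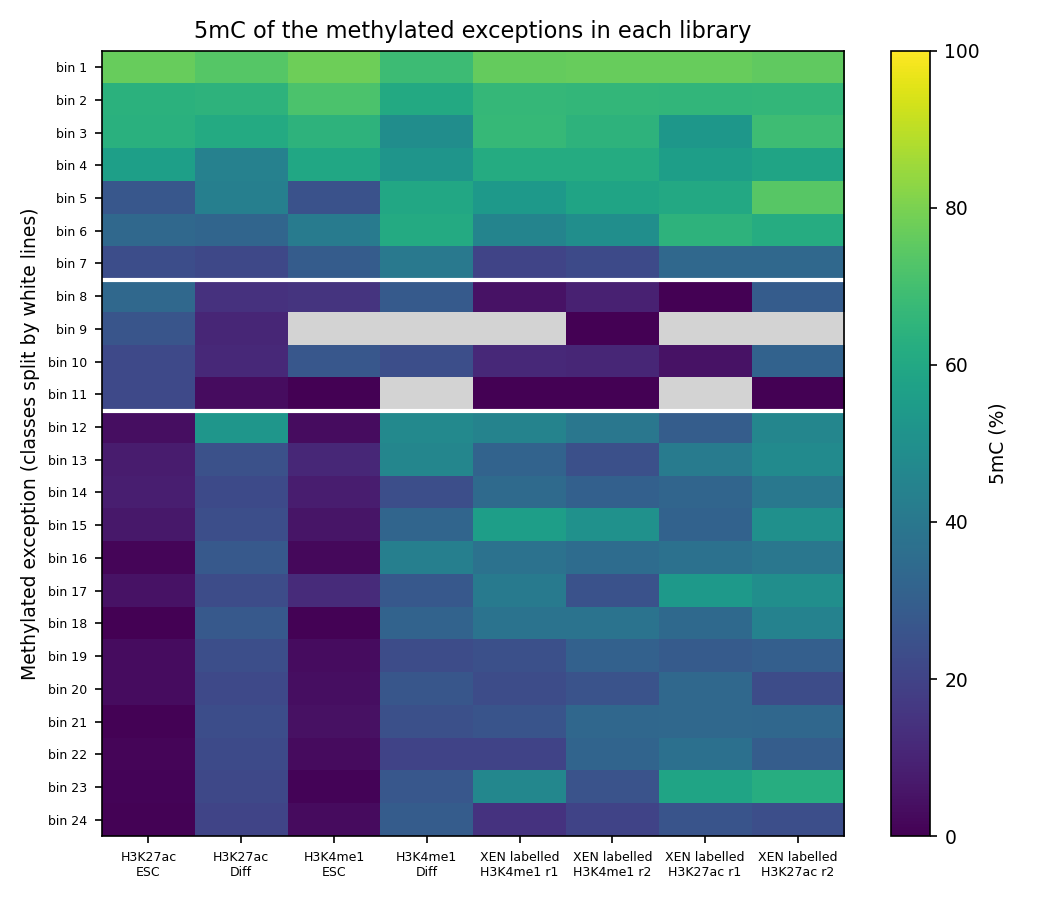
5mC in percent (colour scale) of the 24 methylated exceptions (rows) in the 8 libraries (columns); grey marks bins without a listed count, and white lines split the 7 bins over 20% in both states, the 4 over 20% in ESCs alone and the 13 over 20% in Diff cells alone. In the lowest class the 2 ESC columns are dark (at most 12.2%) and the Diff and XEN columns lighter.

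In XEN cells the members kept their deep coverage in the libraries labelled H3K4me1. The median was 97 counts in replicate 1 and 117 in replicate 2, which per 1000000 autosomal counts is 8.09 and 7.55, against 8.63 and 9.40 in the H3K27ac libraries of ESCs and Diff cells. At least 30 counts were reached by 8001 and 8215 members, and 3 members were under 10 counts in both. In the libraries labelled H3K27ac the medians were 5 and 7, and 531 and 772 members reached 30 counts.

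5mC in XEN cells was again near 0 for most members. With at least 30 counts, the median was 0% in both libraries labelled H3K4me1, with upper quartiles of 0.518% and 0.571%. It was 3.23% and 2.50% in those labelled H3K27ac, with upper quartiles of 10.7% and 7.41%. The median of the comparison bins was also 0% in the former and was 35.0% and 30.8% in the latter. Pooled over all members, 5mC was 2.03% ± 0.0268 (SD, n = 2) under the label H3K4me1 and 25.0% ± 2.49 (SD, n = 2) under the label H3K27ac, a difference of -22.9 points (exact permutation test, two-sided, p = 0.333, the smallest that 2 against 2 can give). These pooled levels rested on very few bins. The bin chr2:98507201-98507400 had the highest count of all autosomal bins in each of the 4 XEN libraries, 24377, 29764, 31043 and 51510, where the libraries of ESCs and Diff cells gave it 218 to 249. Whether duplicate reads were treated alike in the XEN and the other libraries is not given in the sources used here. It alone held 58.9% to 77.5% of the members' methylated counts. Without the 35 members over 2000 counts in any library, of which 3 were exceptions, the levels were 0.621% ± 0.00199 (SD, n = 2) and 6.23% ± 0.158 (SD, n = 2), and the difference was -5.61 points (exact permutation test, two-sided, p = 0.333). With each member weighted equally, as the mean of the members' own percentages, it was -0.937 points, a value that includes members with few counts under the label H3K27ac. Over members with at least 30 counts these means were 0.711% and 0.740% under the label H3K4me1 and 8.21% and 6.52% under the label H3K27ac. The direction follows the labels and turns if the marks are taken from the names of the deposited data.

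Of the 7882 members with at least 30 counts in both libraries labelled H3K4me1, 29 had at least 20% 5mC in both, and 17 of these were among the exceptions above. In either library alone 0.500% and 0.536% of covered members reached that level, against 17.0% and 18.0% of comparison bins. The difference between the replicates had an SD of 1.45 points over the 7882 members. Of the 29, 28 were H3K4me1-rich, as were 601 of the 7882. Only 1 of the 29 was under 5% in both H3K27ac libraries of ESCs and Diff cells. This bin, chr14:32475001-32475200, had 1.00% and 2.01% there, and 38.9% of 36 and 23.3% of 43 counts in the XEN libraries labelled H3K4me1. It was named after its values were seen. The 5 members with the highest mean over the 4 XEN libraries, among the 360 with at least 30 counts in each, were 5 of the 7 exceptions methylated in both other states. They were chr9:35112801-35113000, the 3 bins of chr2 and chr1:180247801-180248000, whose XEN levels were 53.1% to 76.9%. The rich members, without those over 2000 counts, had pooled 5mC of 4.71% and 5.03% in the libraries labelled H3K4me1 and 14.9% and 15.5% in those labelled H3K27ac. The poor members had 0.210% and 0.226%, and 0.359% and 0.246%.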

How the data were processed

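The authors counted methylated and unmethylated CpG calls in every 200-bp bin. Per their methods they aligned single-end reads with Bismark and Bowtie, extracted CpG calls (XEN titles mark paired-end reads) and left out reads with mixed CpG states. The deposited counts carry no normalization and use mm9 per the labels. Whether repeats were pooled in the ESC and Diff data is not given in the sources used here. The deposited peaks carry a HOMER score, used only to rank peaks within a list. The methylated column was taken as the rarer on mitochondrial DNA. It came before the unmethylated one in ESC and Diff data and after it in XEN data.

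The 8 libraries were joined by bin with Python 3.11.15, numpy 2.4.6, pandas 2.3.3, scipy 1.17.1 and numba 0.67.0. The members and lists were chosen with earlier results of these data known. Pooled 5mC is methylated over all counts, with exact (Clopper-Pearson) 95% intervals. Differences per bin were tested by Fisher's exact test, and p-values were adjusted by the Benjamini-Hochberg method over all autosomal bins with 30 counts in both libraries. On simulated counts at the real coverage of the H3K27ac comparison (79672 bins), the test called 35 of 100 deep bins changed by 5 points, 100 of 100 changed by 20 points and 2 of 79472 unchanged. The simulated counts were independent, so this covers counting error only. XEN labels were compared by an exact permutation test over libraries. Nothing says that XEN replicates were separate cultures, so their spread may be technical. Bins were named by rank: the 5 deepest, the 3 longest runs, the 10 most methylated exceptions, the 3 largest changes per direction, those outside H3K27ac peaks, the 3 with most and fewest H3K4me1 counts, and the 5 most methylated in XEN cells. A bin called in this way could be named under several of these. Outside these ranks, chr6:136467801-136468000 was named as the neighbour of a named bin and chr14:32475001-32475200 for its XEN values. The H3K36me, input and single-cell samples, 6 of 14, were not analysed here.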

Additional observations from a re-analysis of the deposited data

Results flagged for a closer look

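Bins of chrX were outside the rule, which took chr1 to chr19. On chrX 96 bins met the same minimum of 200 counts in both H3K27ac libraries. Their pooled 5mC was 0.554% in ESCs (exact 95% interval 0.466 to 0.654) and 0.641% in Diff cells (0.550 to 0.743), and none reached 20% in either library. Their median H3K4me1 counts were 0.5 in ESCs and 7 in Diff cells.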

How the results depend on the processing

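All alternatives but 2 were listed beforehand. Of 107 values, 47 stayed within the exact interval (5mC), a factor of 1.5 (counts) or the same side (XEN), 59 did not and 1 reversed. The cause was not tested. With a minimum of 150 counts, pooled 5mC was 0.730% and 1.06% on H3K27ac and 2.61% and 5.87% on H3K4me1 chromatin (ESCs, Diff), with 300 counts 0.567%, 0.674%, 3.79% and 4.23%. The mean of the members' own percentages was 0.661%, 0.897%, 2.77% and 2.56%, where the turned direction on H3K4me1 chromatin includes members with very few counts (1.69% and 3.53% with at least 30), the median 0.424%, 0.515%, 0% and 0%. Without the exceptions, an alternative chosen after seeing the data, the pooled levels were 0.595%, 0.778%, 1.91% and 3.42%. No member exceeded 2000 counts in ESCs or Diff cells. The exceptions numbered 95 with 150 and 4 with 300 counts, 73 at 10% 5mC, 8 at 30% and 7 at 20% in both libraries. With 300 counts, 100% of members lay in H3K27ac peaks of Diff cells.

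Members called higher in Diff cells on H3K27ac chromatin numbered 475 of 14628 (3.25%) with a minimum of 150 counts and 33 of 2454 (1.34%) with 300, and those called lower 165 (1.13%) and 18 (0.733%), and 47 at an adjusted p under 0.01. On H3K4me1 chromatin 305 of 1561 (19.5%) and 18 of 133 (13.5%) were higher, and 61 at an adjusted p under 0.01, and 5 were lower with a coverage minimum of 20, 1 at an adjusted p under 0.01 and 0 with 300 counts. Between marks in ESCs 16 members were higher with a coverage minimum of 20, 5 with 60 and 4 of 156 (2.56%) with 300 counts, and in Diff cells 23 at an adjusted p under 0.01, 56 of 2920 (1.92%) with 150 and 15 of 408 (3.68%) with 300 counts. More H3K4me1 in Diff cells than in ESCs was found in 63.9% of members by raw counts and 70.2% by counts scaled to the library.

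With flanks that were members left out, 5mC at 1000 and 2000 bp was 3.49% and 12.9% (H3K27ac, ESCs), 7.84% and 23.6% (H3K27ac, Diff), 11.5% (H3K4me1, ESCs, 1000 bp) and 24.1% and 42.9% (H3K4me1, Diff). From the edges of runs it was 3.19% and 12.9%, 6.79% and 22.7%, 12.7% and 25.1%, and 25.8% and 44.1%.

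The XEN difference between labels was -22.9 points as a replicate block too (paired exact test, two-sided, p = 0.5, the smallest that 2 pairs can give), which changed no call. It was -24.7 to -21.2 without either replicate and 22.9 with the marks of the data names, -16.0 over members with at least 30 counts in each XEN library and -0.937 as the mean of the members' own percentages. Without members over 2000 counts, also chosen after seeing the data, it was -5.61.

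Depth limited the H3K4me1 comparisons to 649 to 1471 of 8456 members. With 1 library per mark and state no value for ESCs or Diff cells has a replicate check.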
